A study of Mus musculus with 30 samples.

Results

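The 42 genes described here carry glucose into muscle cells, split it to pyruvate and lactate, store it as glycogen and pass pyruvate to the mitochondrion. They were listed for these roles by a rule that uses no measured change, though the list was chosen with earlier results of these data known. All 42 were among the 55487 genes counted and the 15907 genes with enough reads to test. RNA was sequenced from C2C12 myotubes, multinucleated muscle cells formed by fusion of an immortalised mouse myoblast line, to compare serum deprivation, a model of atrophy, with and without low doses of metformin and leucine. Wild-type cells of this line had grown in DMEM with 4.5 g/L glucose and 10% fetal bovine serum, and every group was then kept in DMEM with 1 g/L glucose, for 4 days of differentiation with 2% horse serum and for 4 further days of treatment. Over those last 4 days the control group (2% HS) stayed on 2% horse serum, and the serum-deprived group (SD) had none. The MET group had no serum and 100 nM metformin, the LEU group no serum and 500 nM leucine, and the MET+LEU group no serum and both compounds. Each group had 6 libraries, 30 in all, made at day 8, and each library held between 12784960 and 19604103 counts. Because the cells are a single line and nothing states that libraries came from separate cultures, p-values measure the spread between these libraries, which may be technical.

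Glucose enters muscle through facilitative carriers, of which GLUT4 moves to the surface with insulin and GLUT1 supplies basal uptake. Hexokinase traps it as glucose 6-phosphate, which is either built into glycogen or run down glycolysis past its main control point, phosphofructokinase, to pyruvate. Pyruvate is reduced to lactate and exported, or enters the mitochondrion for oxidation by the pyruvate dehydrogenase complex, which a family of kinases switches off. Several steps have a muscle isozyme and a general isozyme from separate genes, and the balance between them is known to shift as myoblasts become muscle fibres.

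All 14 markers of differentiated skeletal muscle were counted in every library, and markers of fat, endothelial and immune cells were at or near 0 except Cd68. MET+LEU replicate 6 stood apart from the other 29 libraries, with 5.85% of its counts on ribosomal RNA genes and 7.64% on mitochondrial ribosomal RNA against at most 1.96% and 0.760% in the others. Where leaving it out changed the call for a member named in that comparison, the value without it is given. Leaving it out does not make the groups alike. Mitochondrial ribosomal RNA was 0.219% to 0.306% of counts in 2% HS, 0.281% to 0.367% in SD and 0.244% to 0.705% in MET. It was 0.501% to 0.710% in LEU and 0.649% to 0.760% in MET+LEU without replicate 6. The part of this difference in the results was not tested. Levels are counts scaled to library sizes adjusted by TMM (CPM), and where genes are compared with each other, per kilobase of exon (RPKM). Exon length joins all annotated exons of a gene and can exceed the length of its transcripts. The order of different genes by RPKM therefore depends on the annotation. A gene is said to have risen or fallen where the Benjamini-Hochberg adjusted p of edgeR's quasi-likelihood test, adjusted over all 15907 genes, was under 0.05. Log2 fold changes are followed by ± the standard error.

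In 2% HS myotubes the 42 genes took between 1.19% and 1.305% of all counts, with a median library of 1.23%. The most abundant transcript per kilobase was Aldoa, aldolase A, at 678 ± 21.7 RPKM (mean ± standard deviation, n = 6). It was followed by Eno3, the muscle enolase, at 498 ± 28.5 RPKM, and by Gapdh, the dehydrogenase that makes the NADH of glycolysis, at 369 ± 11.2 RPKM. Pkm, pyruvate kinase, was next at 312 ± 12.8 RPKM. The order after Aldoa depends on exon length, which was 1739 bases for Eno3, 4133 for Gapdh and 5001 for Pkm. Without division by length Aldoa was still highest, at 1973 CPM, but Pkm (1558 CPM) and Gapdh (1526 CPM) stood above Eno3 (865 CPM). At the other end were Aldoc, the brain aldolase, at 0.586 ± 0.149 RPKM and Pfkfb1, the liver and muscle form of the enzyme that makes and breaks fructose 2,6-bisphosphate, at 0.318 ± 0.0475 RPKM. In SD the same 42 genes took 0.972% to 1.10% of counts, with no library in the range of 2% HS. MET libraries had a share of 0.922% to 1.01% and LEU libraries of 0.949% to 1.06%, while MET+LEU ran from 0.734% to 1.05%, where the lowest value was that of replicate 6.

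**Figure D1:**
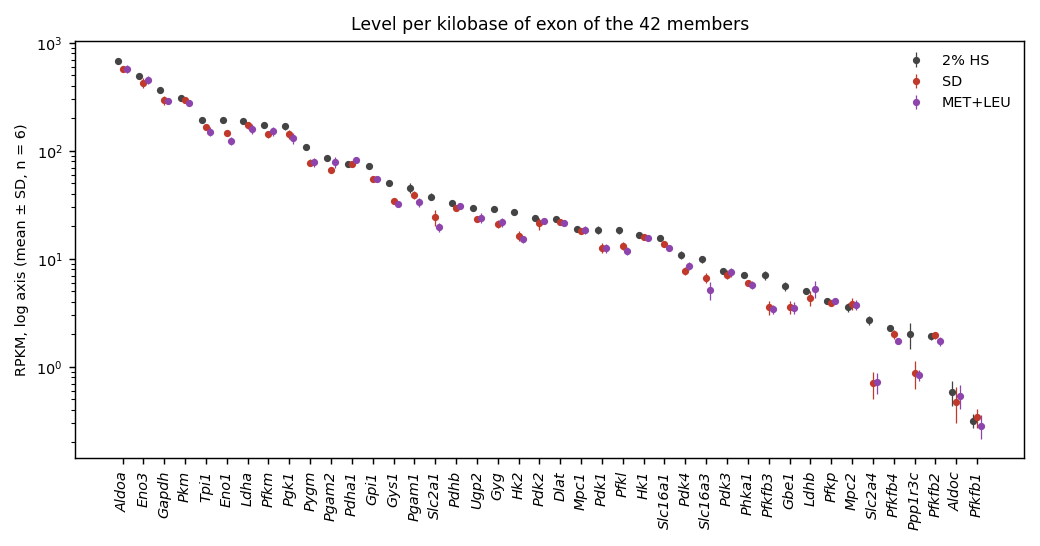
Level of each of the 42 genes per kilobase of exon (RPKM, log axis), ordered by level in 2% HS, for 2% HS (black), SD (red) and MET+LEU (purple); points are means of 6 libraries and bars 1 standard deviation. Levels run from 678 RPKM for Aldoa down to 0.318 RPKM for Pfkfb1 in 2% HS, and the widest gap between 2% HS and SD is at Slc2a4.

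Serum deprivation lowered most of these transcripts. In SD vs. 2% HS, 29 of the 42 genes fell and 0 rose, where 13.9% of all genes tested fell and 13.9% rose. The median log2 fold change of the 42 was -0.24, against 0.00 over all genes tested, and 38 of 42 estimates were below 0. In 21 genes the highest SD library lay below the lowest 2% HS library, as it did in 7.42% of all genes. The 13 genes that did not pass had log2 fold changes between -0.29 and 0.12.

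Other features of the libraries moved in the same comparison, and their part in the falls was not tested. The summed level of the 14 muscle markers was 13033 to 13739 CPM in 2% HS and 11876 to 13516 CPM in SD, with 5 markers lower, among them Ckm, muscle creatine kinase (-0.98), and 1 higher. The summed level of 5 fibroblast markers was 2986 to 3296 CPM in 2% HS and 5202 to 5519 CPM in SD, and all 5 rose. Of 6 myoblast and cycling-cell markers, 1 fell, Pax7, and their sum was 356 to 383 CPM in 2% HS and 316 to 357 CPM in SD. In RNA from whole cultures, fewer cells of a kind and less RNA per cell cannot be told apart.

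**Figure D2:**
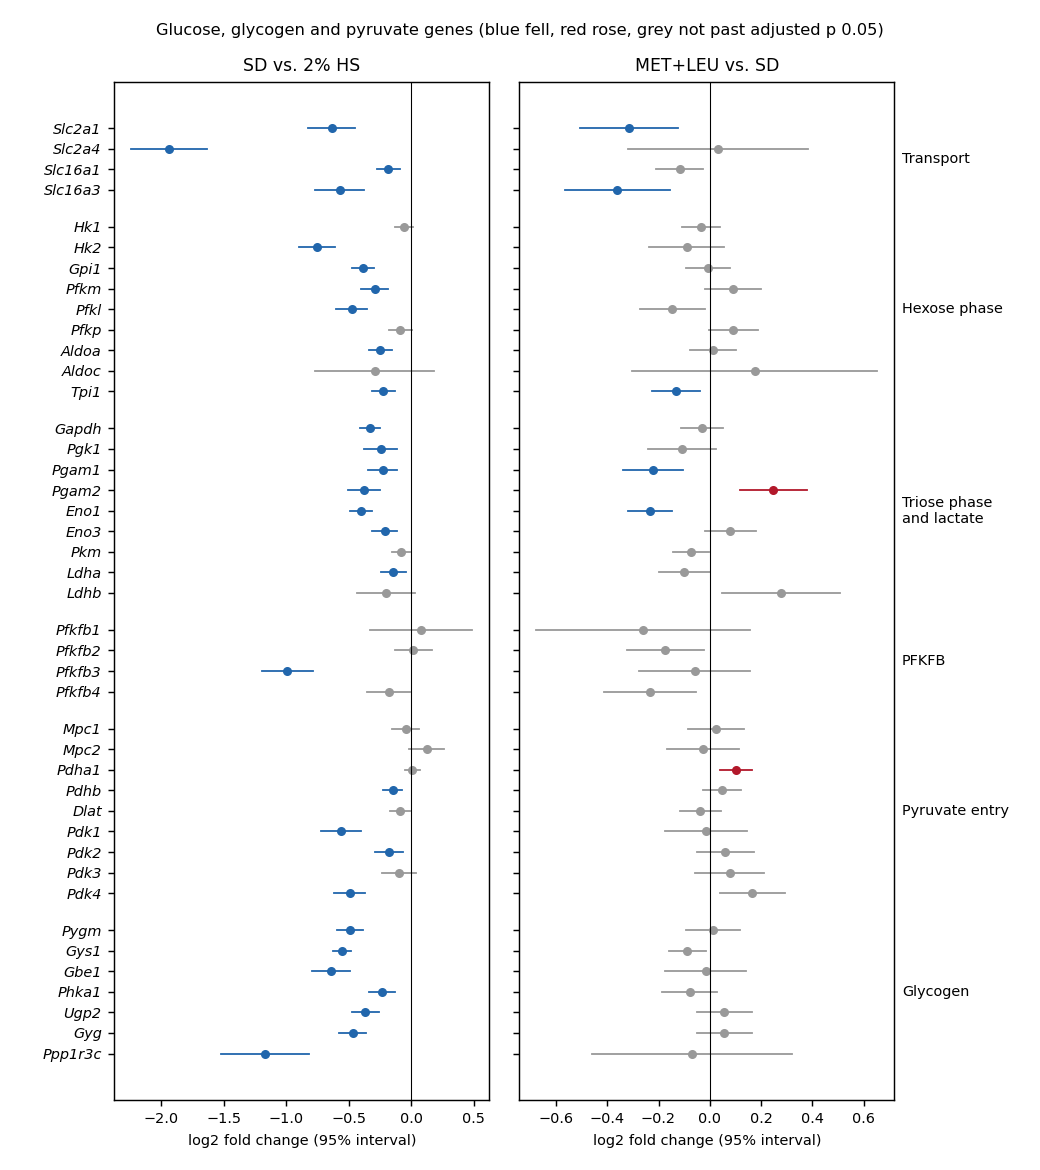
Log2 fold change (points) with its 95% interval (lines) of the 42 genes, grouped by role, for SD vs. 2% HS (left) and MET+LEU vs. SD (right); blue points fell, red points rose and grey points did not pass an adjusted p of 0.05. In SD vs. 2% HS 29 points are blue and none is red, and in MET+LEU vs. SD 5 are blue and 2 are red; the axes of the panels differ in range.

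All 4 membrane transporters fell in SD vs. 2% HS. Slc2a4 (ENSMUSG00000018566, GRCm38 chromosome 11, 69942539 to 69948188, minus strand) encodes GLUT4, the insulin-responsive carrier, and fell most of all 42. Its lowest, median and highest libraries were 8.50, 9.22 and 10.9 CPM in 2% HS and 1.44, 2.56 and 3.32 CPM in SD. The lowest 2% HS library was thus well above every SD library, with a log2 fold change of -1.93 ± 0.15 (adjusted p = 2.28e-14). Slc2a1 (ENSMUSG00000028645), the basal carrier GLUT1, was at 123, 131 and 153 CPM in 2% HS and at 70.1, 83.6 and 110.3 CPM in SD. The groups did not overlap, with a log2 fold change of -0.64 ± 0.10 (adjusted p = 7.34e-06). Per kilobase, GLUT1 transcript was the more abundant in every group, at 37.8 ± 3.01 RPKM against 2.701 ± 0.253 RPKM for GLUT4 in 2% HS and 24.4 ± 4.01 against 0.702 ± 0.193 RPKM in SD.

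The lactate carriers changed to unlike degrees. Slc16a3 (ENSMUSG00000025161), the exporter MCT4 of glycolytic fibres, had 46.5, 53.4 and 56.5 CPM in its lowest, median and highest 2% HS library and 29.8, 35.5 and 40.8 CPM in SD. No SD library reached the 2% HS range, and the log2 fold change was -0.57 ± 0.10 (adjusted p = 4.94e-05). Slc16a1, the more widely expressed carrier MCT1, fell by 0.18 ± 0.05 on the log2 scale (adjusted p = 0.00179), and its groups overlapped.

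The early, hexose phase of glycolysis fell in 6 of 9 genes. Hk2 (ENSMUSG00000000628), the hexokinase of insulin-sensitive tissue, had 154, 162 and 177 CPM in 2% HS and 85.1, 95.8 and 111 CPM in SD. It fell by 0.75 ± 0.07 on the log2 scale (adjusted p = 1.88e-09), with no overlap of the groups. Hk1, the general hexokinase, did not pass, at -0.06 ± 0.04 (adjusted p = 0.276). Hk2 was at 27.4 ± 1.48 RPKM and Hk1 at 16.6 ± 0.696 RPKM in 2% HS. In SD they were at 16.3 ± 1.67 and 15.97 ± 0.757 RPKM, less apart than the spread between libraries. These values divide by 5969 bases of annotated exon for Hk2 and 8532 for Hk1. Before that division the means were 164 CPM for Hk2 and 142 CPM for Hk1 in 2% HS, and 97.1 and 136 CPM in SD. Hk2 thus led in 2% HS by both measures, while in SD the order depended on the lengths used. Among the phosphofructokinase genes the liver type Pfkl fell by 0.48 and the muscle type Pfkm by 0.29, while the platelet type Pfkp was at -0.09 (adjusted p = 0.189). Gpi1, glucose 6-phosphate isomerase, fell by 0.39, Aldoa by 0.25 and Tpi1, triose phosphate isomerase, by 0.22. Aldoc was at -0.29, on levels of 0.968 to 2.24 CPM in 2% HS, and did not pass (adjusted p = 0.393).

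In the later phase, from glyceraldehyde 3-phosphate to lactate, 7 of 9 genes fell, by 0.14 to 0.40 on the log2 scale. Eno1, the general enolase, fell by 0.40, Pgam2, the muscle phosphoglycerate mutase, by 0.38 and Gapdh by 0.33. Pgk1, phosphoglycerate kinase, fell by 0.24, Pgam1, the general mutase, by 0.23, Eno3 by 0.21 and Ldha, the lactate dehydrogenase subunit of muscle, by 0.14. Gapdh is used as a reference gene in many expression assays. Its libraries ran from 1451 to 1572 CPM in 2% HS and from 1107 to 1359 CPM in SD and did not overlap. Pkm (-0.08, adjusted p = 0.0934) and the heart lactate dehydrogenase subunit Ldhb (-0.20, adjusted p = 0.212) did not pass. The call for Ldha was lost without 2% HS replicate 1 (adjusted p = 0.0697), without 2% HS replicate 5 (0.0521), without SD replicate 4 (0.069) and without SD replicate 5 (0.0806), and with all genes of more than 5 counts (0.0849). Pkm passed with upper-quartile scaling (adjusted p = 0.0491), voom (0.0274) or an offset for GC content (-0.12, 0.00531), and without SD replicate 1 (0.0463) or MET+LEU replicate 6 (0.0465).

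Of the 4 bifunctional enzymes that set fructose 2,6-bisphosphate, the strongest activator of phosphofructokinase, 1 fell. Pfkfb3 (ENSMUSG00000026773), the form with the highest kinase activity, had 47.6, 53.2 and 60.9 CPM in 2% HS and 20.4, 27.4 and 30.7 CPM in SD. It fell by 0.99 ± 0.11 on the log2 scale (adjusted p = 1.11e-08), and no SD library reached the 2% HS range. Its relatives Pfkfb1 (0.08), Pfkfb2 (0.02) and Pfkfb4 (-0.18) did not pass, with adjusted p between 0.129 and 0.889.

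The 7 glycogen genes all fell. Ppp1r3c (ENSMUSG00000067279), which anchors protein phosphatase 1 to glycogen and so favours synthesis, had 3.77, 5.32 and 7.50 CPM in 2% HS and 1.39, 2.59 and 3.21 CPM in SD. The log2 fold change was -1.17 ± 0.18 (adjusted p = 8.45e-07) and the groups did not overlap, though the gene was at only 18 counts in its lowest library. Gbe1 (ENSMUSG00000022707), the branching enzyme, had 26.5, 29.4 and 33.8 CPM in 2% HS and 16.01, 19.3 and 22.1 CPM in SD, a log2 fold change of -0.64 ± 0.08 (adjusted p = 3.27e-09). Gys1 (ENSMUSG00000003865), muscle glycogen synthase, had the narrowest spread of these genes. It was at 235, 238 and 244 CPM in 2% HS and at 157, 163 and 172 CPM in SD, a log2 fold change of -0.55 ± 0.04 (adjusted p = 3.52e-17). Genes of synthesis and of breakdown moved the same way, since Pygm, muscle glycogen phosphorylase, fell by 0.49 and Phka1, the muscle regulatory subunit of the kinase that activates it, by 0.23. Gyg, the glycogenin that primes each particle, fell by 0.47 and Ugp2, which makes UDP-glucose, by 0.37.

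At the entry of pyruvate to the mitochondrion 4 of 9 genes fell, and 3 of these encode pyruvate dehydrogenase kinases. Pdk1 (ENSMUSG00000006494) had 133, 141 and 167 CPM in 2% HS and 79.7, 98.6 and 111 CPM in SD, a log2 fold change of -0.56 ± 0.08 (adjusted p = 3.33e-06). Pdk4 (ENSMUSG00000019577), the kinase known to rise in fasted muscle, had 33.7, 38.4 and 43.1 CPM in 2% HS and 24.2, 27.3 and 29.4 CPM in SD, a log2 fold change of -0.49 ± 0.06 (adjusted p = 2.01e-08). Neither kinase had overlapping groups. Pdk2 fell by 0.18, a call lost without SD replicate 6 (-0.13, adjusted p = 0.0616), and Pdk3 was at -0.10 (adjusted p = 0.296). Of the complex itself, Pdhb fell by 0.15, whereas Pdha1 (0.01, 95% interval -0.05 to 0.07) and Dlat (-0.09, -0.17 to -0.01) did not pass. Dlat passed without MET+LEU replicate 6 (-0.09, adjusted p = 0.0476). The carrier subunits Mpc1 (-0.04) and Mpc2 (0.12) did not pass either, and Mpc2 passed only when SD replicate 5 was left out (0.18, adjusted p = 0.0489).

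**Figure D3:**
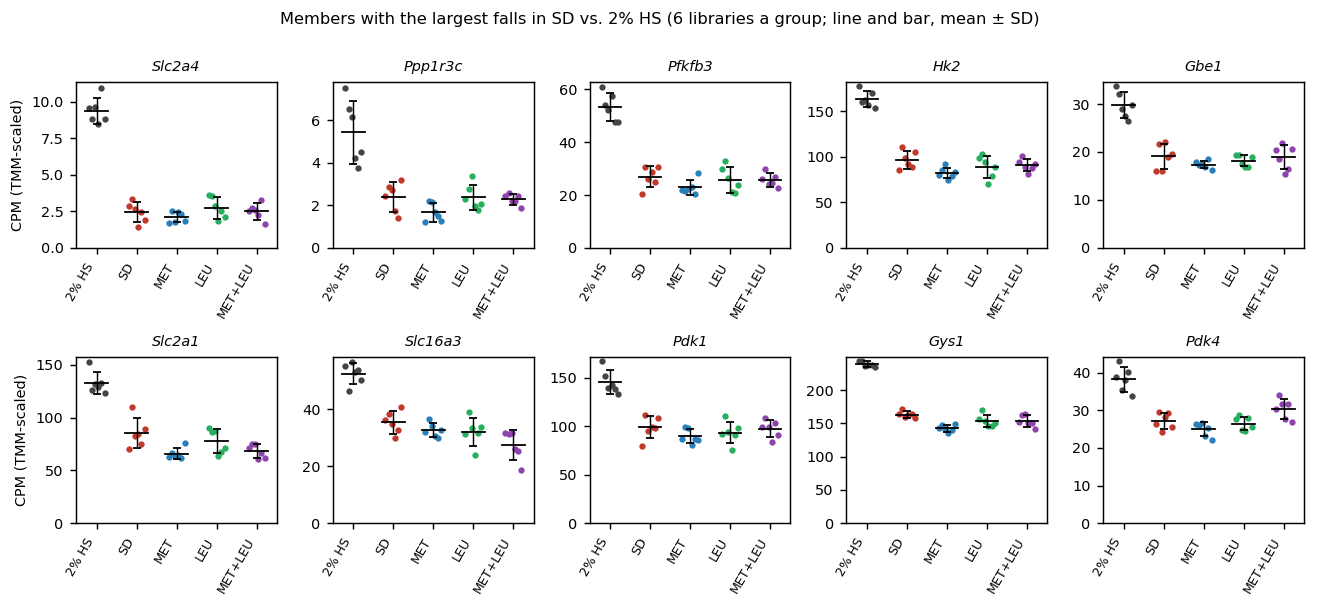
Level (CPM) of the 10 members with the largest falls in SD vs. 2% HS in each of the 30 libraries; lines and bars are the mean and 1 standard deviation of 6 libraries. In every panel the 2% HS points lie above all SD points, and the means of MET, LEU and MET+LEU lie nearer that of SD than that of 2% HS. Slc2a1 and Slc16a3 fell further in MET+LEU vs. SD, and Gys1 in MET vs. SD.

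Promoter windows are shown for members of the largest falls whose window holds the letters ACGTG, the core of the hypoxia response element, which is known from promoters of several glycolytic genes. RefSeq windows on GRCm38.p6 matched 41 of the 42 genes. Slc2a4, the gene with the largest fall, had no window and was not searched. Each sequence below is the 250 bases before an annotated start, 5′ to 3′ on the gene's strand. Capitals mark ACGTG, or CACGT where the letters lie on the other strand, and a CACGTG holds both in overlap. The windows are chr19:36736605-36736854 for Ppp1r3c, chr2:11553930-11554179 for Pfkfb3, chr6:82774455-82774704 for Hk2, all 3 on the minus strand, and chr4:119108495-119108744 for Slc2a1 and chr11:120948817-120949066 for Slc16a3, both on the plus strand.
Ppp1r3c: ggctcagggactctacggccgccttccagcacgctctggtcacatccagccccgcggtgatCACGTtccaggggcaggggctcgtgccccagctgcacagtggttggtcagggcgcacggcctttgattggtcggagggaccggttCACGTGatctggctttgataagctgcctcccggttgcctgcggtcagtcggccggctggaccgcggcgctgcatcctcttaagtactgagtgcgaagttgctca
Pfkfb3: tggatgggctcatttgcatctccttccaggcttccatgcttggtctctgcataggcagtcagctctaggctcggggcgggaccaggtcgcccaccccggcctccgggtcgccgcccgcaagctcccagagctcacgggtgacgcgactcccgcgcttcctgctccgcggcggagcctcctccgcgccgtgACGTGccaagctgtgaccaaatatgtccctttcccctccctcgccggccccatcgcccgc
Hk2: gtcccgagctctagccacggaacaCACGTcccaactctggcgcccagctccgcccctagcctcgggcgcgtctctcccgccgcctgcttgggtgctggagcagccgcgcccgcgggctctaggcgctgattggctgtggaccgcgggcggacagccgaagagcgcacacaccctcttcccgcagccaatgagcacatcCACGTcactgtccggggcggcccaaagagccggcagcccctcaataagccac
Slc2a1: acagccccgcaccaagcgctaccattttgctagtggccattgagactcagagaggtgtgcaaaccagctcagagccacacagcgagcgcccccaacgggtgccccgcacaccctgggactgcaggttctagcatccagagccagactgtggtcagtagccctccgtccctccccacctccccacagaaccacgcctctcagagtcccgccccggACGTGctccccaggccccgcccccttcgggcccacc
Slc16a3: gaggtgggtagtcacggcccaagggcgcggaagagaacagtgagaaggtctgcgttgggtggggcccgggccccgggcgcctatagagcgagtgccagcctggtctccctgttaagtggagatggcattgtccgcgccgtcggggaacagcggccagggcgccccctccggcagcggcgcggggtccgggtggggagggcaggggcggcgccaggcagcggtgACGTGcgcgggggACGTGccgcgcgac
Ppp1r3c held 3 matches, 2 of which form a CACGTG, while Hk2 and Slc16a3 held 2 each. Pfkfb3, in the window shown, and Slc2a1 held 1 each. The windows of Gbe1, Pdk1, Gys1 and Pdk4 held none. Searched on both strands, ACGTG was in a window of 18 of the 41 genes (43.9%), against 18.5% of 27025 genes with a window. Of the genes that fell in SD vs. 2% HS 15 of 28 held it (53.6%), and of those that did not pass 3 of 13 (23.1%). A gene can have several windows. Counted by window, ACGTG was in 35.5% of the 62 member windows against 16.6% of all 32851. In 49 of the 62 the bases after the start were found in a GENCODE transcript of the gene. CACGTG was in 17.1% of the 41 genes against 6.86% of all. The letters CTA, any 4 bases and TAG, a looser pattern than the MEF2 muscle element, were in 3 of the 41 (7.32%) against 3.7%. That pattern was in 1 of the 28 genes that fell and in 2 of the 13 that did not pass. A match is a run of letters and says nothing of binding in these cells.

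With metformin or leucine alone few of these transcripts passed the threshold. In MET vs. SD 1 of 42 genes fell and 0 rose, where 0.0817% of all genes fell and 0.0754% rose. The gene was Gys1, at 157, 163 and 172 CPM in SD and at 135, 143 and 150 CPM in MET in its lowest, median and highest libraries. The groups did not overlap, as for 0.371% of all genes, and the log2 fold change was -0.19 ± 0.04 (adjusted p = 0.0137), a call lost without SD replicate 2 (-0.17, adjusted p = 0.087) and without MET replicate 4 (-0.18, adjusted p = 0.0622). Over the 42 genes the median was -0.10, against 0.00 over all genes, with 38 estimates below 0. Eno1 (-0.19, adjusted p = 0.0574), Gapdh (-0.15, adjusted p = 0.124) and Slc2a1 (-0.38, adjusted p = 0.118) did not pass. All 3 passed with DESeq2, Eno1 at an adjusted p of 0.0144, Gapdh of 0.0471 and Slc2a1 of 0.0193. Gapdh also passed without SD replicate 6 (adjusted p = 0.043) or MET+LEU replicate 6 (0.0455), and Slc2a1 with voom (0.00972). Eno1 passed with voom (0.0114), a minimum of 10 counts in every library (0.0479) and the GC offset (0.0395). It passed as well without MET+LEU replicate 6 (0.00273) and without any of SD replicates 3, 4 and 6, MET replicate 6 and MET+LEU replicates 2 and 5, with adjusted p between 0.0357 and 0.0494.

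In LEU vs. SD edgeR called none of the 42 genes, where 0.321% of all genes fell and 0.233% rose, and DESeq2 called none. Estimates ran from -0.15 to 0.39, with a median of -0.05 against -0.01 over all genes. Gys1 was at -0.08 (95% interval -0.16 to -0.01), Slc2a1 at -0.13 (-0.32 to 0.06) and Pgam2 at 0.16 (0.03 to 0.29). The largest estimate, 0.39 for Aldoc, had an interval of -0.07 to 0.86.

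With both compounds, 7 of the 42 genes changed from SD. In MET+LEU vs. SD 5 genes fell (11.9%) and 2 rose (4.76%), where 7.8% of all genes fell and 10.6% rose. The median of the 42 was -0.03, against -0.01 over all genes. Without MET+LEU replicate 6, 3 genes fell and 3 rose. The comparison shares its SD libraries with SD vs. 2% HS, MET vs. SD and LEU vs. SD, so the values of these comparisons are not independent of each other.

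The genes that fell were Slc16a3, Slc2a1, Eno1, Pgam1 and Tpi1. Slc16a3 had 29.8, 35.5 and 40.8 CPM in SD and 18.7, 28.6 and 31.8 CPM in MET+LEU, the lowest of these in replicate 6. The groups overlapped, and the log2 fold change was -0.36 ± 0.10 (adjusted p = 0.0156), or -0.28 (adjusted p = 0.0341) without replicate 6. Slc2a1 had 70.1, 83.6 and 110.3 CPM in SD and 61.2, 69.0 and 75.4 CPM in MET+LEU, so that its groups overlapped as well. Its log2 fold change was -0.32 ± 0.10 (adjusted p = 0.024). That call was lost without MET+LEU replicate 6 (-0.29, adjusted p = 0.0611), without SD replicate 2 (-0.24, adjusted p = 0.0706) and with the GC offset (-0.28, adjusted p = 0.0526). The Slc16a3 call was lost with only the SD and MET+LEU libraries fitted (-0.36, adjusted p = 0.0547).

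Eno1 (ENSMUSG00000063524) was the only one of the 5 whose groups did not overlap, as was the case for 1.93% of all genes. It had 743, 765 and 863 CPM in SD and 570.0, 675 and 720 CPM in MET+LEU, a log2 fold change of -0.23 ± 0.04 (adjusted p = 0.000168) that was -0.20 (adjusted p = 0.000158) without replicate 6. MET was at 654 to 740 CPM and LEU at 682 to 759 CPM. The near-identical retrocopy Eno1b, which can share reads with Eno1, was at 139 ± 7.86 CPM in 2% HS, 109 ± 7.74 CPM in SD and 86.7 ± 13.7 CPM in MET+LEU. Its log2 fold change was -0.35 on serum deprivation and -0.32 on adding both compounds. Pgam1 (ENSMUSG00000011752) had 69.8, 77.8 and 84.6 CPM in SD and 58.2, 69.2 and 71.1 CPM in MET+LEU. It fell by 0.22 ± 0.06 on the log2 scale (adjusted p = 0.00726), with overlap, and was also called without replicate 6 (-0.19, adjusted p = 0.0229). Tpi1 (ENSMUSG00000023456) had 424, 459 and 482 CPM in SD and 348, 418 and 469 CPM in MET+LEU. Its fall of 0.13 ± 0.05 (adjusted p = 0.0435) was lost without MET+LEU replicate 6 (-0.09, adjusted p = 0.116). It was also lost without any of 6 other libraries, 2% HS replicate 5, SD replicates 1, 2 and 3, LEU replicate 6 and MET+LEU replicate 4, with adjusted p between 0.0505 and 0.0795. Voom (0.105), the filter of more than 5 counts (0.0711), the 2 groups alone (0.154) and the GC offset (0.07) lost it too.

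The genes that rose were Pgam2 and Pdha1. Pgam2 (ENSMUSG00000020475) had 50.5, 55.9 and 62.1 CPM in SD and 57.8, 66.0 and 77.1 CPM in MET+LEU, a log2 fold change of 0.25 ± 0.07 (adjusted p = 0.0078) that was 0.27 (adjusted p = 0.00459) without replicate 6. Its LEU libraries, at 56.8 to 71.0 CPM, lay in much the same range as those of MET+LEU. Pdha1 (ENSMUSG00000031299), the catalytic alpha subunit on the X chromosome, had 275, 281 and 295 CPM in SD and 296, 300.5 and 321 CPM in MET+LEU. The groups touched without overlap, as 3.41% of all genes did in this direction, and the log2 fold change was 0.10 ± 0.03 (adjusted p = 0.0162). Without MET+LEU replicate 6 it was 0.09 (adjusted p = 0.0497), and the call was lost without SD replicate 2 (adjusted p = 0.0648), SD replicate 6 (0.0524) or MET+LEU replicate 2 (0.0694). It was lost also with voom (adjusted p = 0.054), the filter of more than 5 counts (0.0582) and the 2 groups alone (0.0807). With the GC offset the estimate was 0.055 (adjusted p = 0.202), while Eno3 (0.13, adjusted p = 0.0132) and Pfkm (0.14, adjusted p = 0.0398) rose. Map3k15, on the other strand, covers 16.1% of the exon bases of Pdha1, and the strand setting of the counting was not given.

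**Figure D4:**
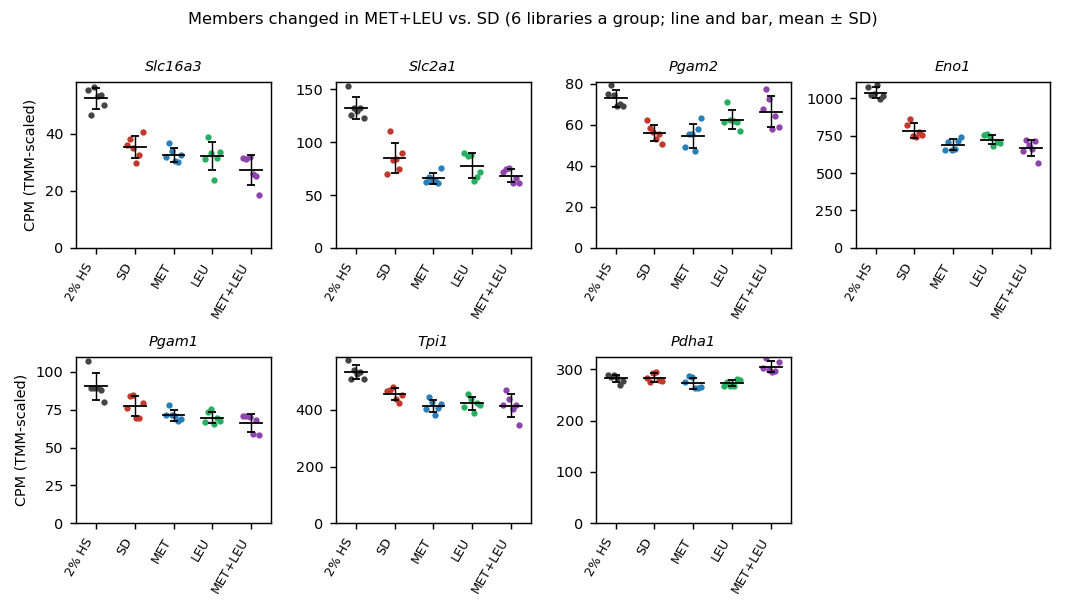
Level (CPM) of the 7 members that changed in MET+LEU vs. SD in each of the 30 libraries; lines and bars are the mean and 1 standard deviation of 6 libraries. Slc16a3, Slc2a1, Eno1, Pgam1 and Tpi1 are lower in MET+LEU than in SD and lower in SD than in 2% HS, Pgam2 lies between, and Pdha1 in MET+LEU is above the other groups.

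The members with the largest falls in SD did not pass in MET+LEU vs. SD, apart from Slc2a1 and Slc16a3. Estimates with their 95% intervals were 0.03 (-0.32 to 0.38) for Slc2a4, -0.07 (-0.46 to 0.32) for Ppp1r3c, -0.06 (-0.28 to 0.16) for Pfkfb3 and -0.09 (-0.24 to 0.06) for Hk2. They were -0.02 (-0.17 to 0.14) for Gbe1, -0.02 (-0.18 to 0.14) for Pdk1, -0.09 (-0.16 to -0.02) for Gys1 and 0.16 (0.04 to 0.29) for Pdk4. The upper end of each interval was smaller than the size of that gene's fall in SD vs. 2% HS, an estimate from the same SD libraries. Pdk4 passed without MET+LEU replicate 6 (0.19, adjusted p = 0.0365) or MET+LEU replicate 4 (0.18, 0.0485). Gys1 fell with upper-quartile scaling (-0.10, adjusted p = 0.0402) and without SD replicate 6 (0.048), LEU replicate 2 (0.047), MET+LEU replicate 2 (0.0346) or MET+LEU replicate 3 (0.0369). Others passed under some settings: Slc16a1 with upper-quartile scaling (-0.13, adjusted p = 0.0344), DESeq2 (-0.12, 0.0471), a minimum of 10 counts in every library (-0.12, 0.048), the GC offset (-0.19, 0.0029) and without any of 7 libraries. Pfkfb4 passed with DESeq2 (-0.24, adjusted p = 0.0488) and without SD replicate 4 or 5, and Pfkl without SD replicate 5 (-0.19, adjusted p = 0.0226).

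MET+LEU vs. 2% HS sets both compounds against cells that kept serum. In it 31 of 42 genes fell and 1 rose, where 20.3% of all genes fell and 22.1% rose, and the median of the 42 was -0.31 against -0.01. The 2% HS libraries are those of SD vs. 2% HS. The gene that rose was Pdha1 (0.11). The largest falls were in Slc2a4 (-1.90), Ppp1r3c (-1.24), Pfkfb3 (-1.05), Slc2a1 (-0.95), Slc16a3 (-0.93) and Hk2 (-0.84). They were followed by Gbe1 (-0.66), Eno1 (-0.64), Gys1 (-0.64), Pfkl (-0.62) and Pdk1 (-0.58). Between -0.48 and -0.30 lay Pygm (-0.48), Pgam1 (-0.45), Gyg (-0.41), Pfkfb4 (-0.41), Gpi1 (-0.39), Gapdh (-0.36), Tpi1 (-0.36), Pgk1 (-0.35), Pdk4 (-0.33), Phka1 (-0.31), Ugp2 (-0.31) and Slc16a1 (-0.30). The smallest were Ldha (-0.24), Aldoa (-0.23), Pfkm (-0.20), Pkm (-0.15), Eno3 (-0.13), Dlat (-0.12), Pdhb (-0.10) and Hk1 (-0.09). Among these, the Hk1 call (adjusted p = 0.0496) was lost without any of 7 libraries, and the Eno3 call without 2% HS replicate 5 (-0.10, adjusted p = 0.108), MET+LEU replicate 4 (0.055) or MET+LEU replicate 6 (0.0717). With the filter of more than 5 counts Hk1 (adjusted p = 0.0937), Eno3 (0.0813) and Pdhb (0.0606) did not pass, and with the GC offset Hk1 (-0.061, 0.225) and Pdha1 (0.065, 0.0596) did not.

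MET+LEU was also set against each compound alone. In MET+LEU vs. LEU 1 of 42 rose, Pdha1 (0.16, adjusted p = 0.00184), and 0 fell, where 4.61% of all genes rose and 1.67% fell. In MET+LEU vs. MET 5 rose and 1 fell, where 5.54% rose and 3.15% fell. Those that rose were Ldhb (0.49), Pdk4 (0.29), Pgam2 (0.28), Gyg (0.19) and Pdha1 (0.16), and the gene that fell was Slc16a1 (-0.16). The 5 that rose were 9 with voom, 12 with the GC offset, where 752 of all genes rose, and 3 with the 2 groups alone. Pdk4 had 22.2, 25.6 and 26.7 CPM in MET and 26.97, 31.0 and 34.1 CPM in MET+LEU, and these groups did not overlap, as for 2.48% of all genes in that direction. The Gyg call was lost without any of MET replicates 1, 2 and 5 and MET+LEU replicates 1, 2 and 3, and the Slc16a1 call without MET replicate 2 (adjusted p = 0.0555). With the 2 groups alone Pgam2 (adjusted p = 0.0586), Gyg (0.0794) and Slc16a1 (0.0597) did not pass.

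The interaction of MET and LEU asks whether their joint effect departs from the sum of the separate effects on the log2 scale. It passed for 1 of 42 genes, Pdha1, at 0.21 ± 0.04 (adjusted p = 0.0336), where 0.0377% of all genes passed upward and 0.0126% downward. Pdha1 was at 282 ± 7.35 CPM with serum and 284 ± 8.59 CPM without, 273 ± 10.7 CPM with MET, 273 ± 5.87 CPM with LEU and 305 ± 10.7 CPM with both (mean ± standard deviation, n = 6). MET+LEU was thus the highest, and the means of the other 4 groups lay between 273 and 284 CPM. The estimate without 1 of the 30 libraries ran from 0.19 to 0.22, and the call was lost in 27 of those 30 fits, with an adjusted p of up to 0.207 (without SD replicate 4) and of 0.0534 without MET+LEU replicate 6. It was lost too with the size factors of DESeq2 (0.0682), upper-quartile scaling (0.0908), the filter of more than 5 counts (0.247), the groups compared alone (0.155) and the GC offset (0.052).

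A ratio of isozymes within a library does not depend on how libraries are scaled. The pairs and the test were chosen with earlier results of these data known. For 8 pairs in 4 comparisons, 32 relations in all, log2 ratios were compared with a two-sided exact permutation test of 6 against 6 libraries, whose smallest possible p is 0.00216. In SD vs. 2% HS 3 ratios fell at that p (adjusted p = 0.0139, exact). The Hk2/Hk1 ratio was 0.10 to 0.36 in 2% HS and -0.70 to -0.19 in SD, a difference of -0.70 ± 0.09. The Slc2a4/Slc2a1 ratio was -3.99 to -3.59 and -5.85 to -4.61, a difference of -1.33 ± 0.19. The Slc16a3/Slc16a1 ratio was -0.58 to -0.27 and -0.96 to -0.66, a difference of -0.39 ± 0.07. In each pair the transporter or hexokinase typical of mature or glycolytic muscle fell by more than its general partner.

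With both compounds 3 ratios of muscle to general glycolytic isozyme rose from SD. Among the genes of these pairs Pgam2 rose, and Pgam1 and Eno1 fell. Eno3 (0.08, edgeR adjusted p = 0.297), Pfkm (0.09, 0.272) and Pfkl (-0.15, 0.114) did not pass. The Pgam2/Pgam1 ratio was -0.65 to -0.29 in SD and -0.08 to 0.12 in MET+LEU, a difference of 0.46 ± 0.07 (exact p = 0.00216, adjusted p = 0.0139). The Eno3/Eno1 ratio was -0.23 to 0.12 and 0.08 to 0.36, a difference of 0.32 ± 0.07, and the Pfkm/Pfkl ratio was 2.29 to 2.61 and 2.57 to 2.78, a difference of 0.24 ± 0.05 (each exact p = 0.00433, adjusted p = 0.0198). Without MET+LEU replicate 6 the 3 differences were 0.46, 0.30 and 0.24, and each passed. In LEU vs. SD the Pgam2/Pgam1 ratio also rose, to between -0.28 and -0.04, by 0.30 ± 0.07 (exact p = 0.00216, adjusted p = 0.0139). For Eno3/Eno1 the mean was -0.26 with serum and -0.08 without, 0.08 with MET, 0.10 with LEU and 0.24 with both. Its SD vs. 2% HS difference of 0.19 ± 0.07 did not pass (exact p = 0.0216, adjusted p = 0.0533). Muscle markers moved beside these ratios, and their part was not tested. From SD to MET+LEU 8 of 14 rose and 0 fell, where 10.6% of all genes rose and 7.8% fell. Their summed level was 11876 to 13516 CPM in SD (median 12026) and 13295 to 15965 CPM in MET+LEU (median 14259). The highest of these sums was in MET+LEU replicate 6, and marker calls without that library are not given. Of 6 myoblast and cycling-cell markers 4 fell. The Ldha/Ldhb ratio did not pass at -0.38 ± 0.12 (exact p = 0.0195, adjusted p = 0.0533), and neither did Aldoa/Aldoc in any comparison.

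**Figure D5:**
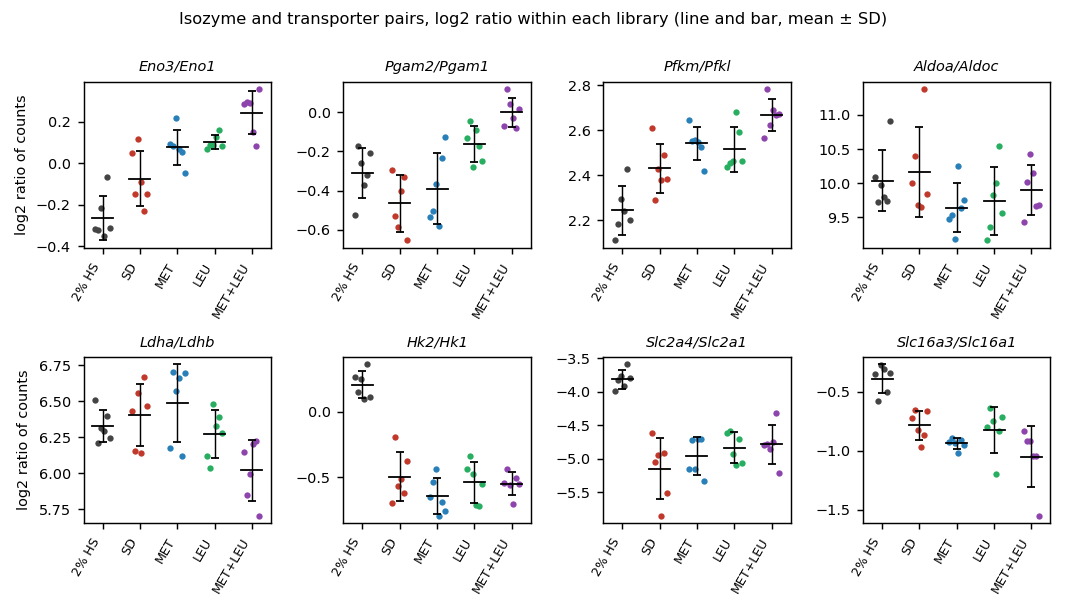
Log2 ratio of the counts of 2 genes within each of the 30 libraries for 8 isozyme or transporter pairs; lines and bars are the mean and 1 standard deviation of 6 libraries. Hk2/Hk1, Slc2a4/Slc2a1 and Slc16a3/Slc16a1 drop from 2% HS to SD without overlap, and Pgam2/Pgam1, Eno3/Eno1 and Pfkm/Pfkl are higher in MET+LEU than in SD, the last 2 with a slight overlap.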

How the data were processed

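Total RNA of 30 C2C12 libraries was depleted of ribosomal RNA, made into stranded libraries and sequenced by the authors with paired reads of 150 bases. The deposited values are raw counts per Ensembl gene (55487 genes), without normalization. The submitters' processing notes name cutadapt 1.16, STAR 2.7.6a, featureCounts 1.6.3, DESeq2 1.30.1 and GRCm38. Their annotation release, treatment of multimapping reads and strand setting are not given in the sources used here. Groups and replicate numbers came from the sample labels, which name no batch.

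Of the identifiers, 55227 matched GENCODE M21 (GRCm38), which gave symbols, exon lengths and GC content, and 260 with 0.00434% of counts did not. In R 4.3.3, edgeR 4.0.16 filterByExpr (minimum count 10, total 15) kept 15907 genes, TMM scaled the libraries, and 1 mean per group was fitted to all 30 libraries (robust glmQLFit). Quasi-likelihood F tests were adjusted by Benjamini-Hochberg over all genes at 0.05. The standard error is the log2 fold change divided by the root of F, and 95% intervals are normal. RPKM used the same library sizes and the joined length of all annotated exons of a gene. Isozyme ratios added 0.5 to each count, and their permutation p was adjusted over 32 relations. The 42 members, the lists and the tests were chosen with earlier results of these data known. Every member past the threshold is named in SD vs. 2% HS and MET+LEU vs. SD, with library values for the 10 largest changes at a mean log2 CPM of at least 1. Other pathway genes were listed by role, and the 3 largest changes past the threshold in these comparisons are named. Genes named beyond these, by role or as an isozyme partner, were chosen after their values were seen.

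Counting precision is set by 12784960 to 19604103 counts per library. No libraries were duplicates, since the smallest chi-square per degree of freedom between 2 libraries of a group was 2.29. On simulated counts for SD vs. 2% HS, changes of 1.25-fold were found in 57.5% of 200 genes (15765 tested), of 1.5-fold in 80% (15745) and of 2-fold in 99.5% (15738), with 6, 7 and 7 false calls. In the real SD vs. 2% HS 4424 genes were called, far more than the 200 changed in the simulation. The recovery rates need not hold there. Alternatives were size factors of DESeq2 1.42.0, upper-quartile scaling, the DESeq2 Wald test, limma 3.58.1 voom with sample weights, 2 other filters, the compared groups alone, a replicate block, a GC offset, leaving out each library, and a prior count of 2 for ratios. Promoter windows and motif matches came from a RefSeq table on GRCm38.p6.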

Additional observations from a re-analysis of the deposited data

Results flagged for a closer look

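Of 115 sets of 6 libraries examined for a library far from the others, 4 had one, and chance alone gives about 1 in 20. Slc2a1 in 2% HS was highest in replicate 1, at 7.256 log2 CPM, with the nearest library at 7.048. The log2 Aldoa/Aldoc ratio in 2% HS was highest in replicate 6, at 10.9 with the nearest at 10.09, on the low counts of Aldoc. The log2 Slc16a3/Slc16a1 ratio was lowest in LEU replicate 4, at -1.194 with the nearest at -0.8337, and in MET+LEU replicate 6, at -1.549 with the nearest at -1.04. That last library is the one with the highest ribosomal RNA share.

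The joint effect of MET and LEU on Pdha1 differed from the sum of their separate effects by 0.2132 on the log2 scale in the test of the interaction itself, a call that was lost in 27 of 30 fits without a library.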

How the results depend on the processing

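The 29 falls and 0 rises of members in SD vs. 2% HS were 28 to 30 falls and 0 rises under the other normalizations, tools, filters and fits, and 28 to 31 falls with 0 to 1 rise without a library. Of 77 calls for a member none changed sign under an alternative. Members that fell in MET vs. SD, 1 here, were 4 with DESeq2, 3 with voom, 2 with at least 10 counts in every library, 2 with the GC offset, and 0 to 3 without a library. In MET+LEU vs. SD the 2 that rose were 1 with voom, the low filter or only the groups compared (1 to 3 without a library), and the 5 that fell were 3 with only the groups compared (3 to 8). The GC offset gave 5 falls and 3 rises there, with the calls for Slc2a1, Tpi1 and Pdha1 lost and those for Slc16a1, Eno3 and Pfkm among the gained. Rises vs. 2% HS, 1 here, were 0 with the GC offset. Rises vs. LEU, 1 here, were 2 with DESeq2 and with voom (1 to 2 without a library, with 0 to 1 falls). Rises vs. MET, 5 here, were 9 with voom, 3 with only the groups compared and 12 with the GC offset, and its 1 fall was 0 with only the groups compared (0 to 1 without a library). The interaction, 1 here, was 0 with DESeq2's size factors, upper-quartile scaling, the low filter, only the groups compared or the GC offset, 2 with DESeq2, and 0 to 1 without a library.

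Changes of sign were in values that did not pass. Upper-quartile scaling gave -0.0028 for Pdha1 in SD vs. 2% HS and -0.0015 for Pygm in MET+LEU vs. SD, voom gave 0.019 for Ppp1r3c and the GC offset 0.034 for Hk1 in MET+LEU vs. SD. Without a library, SD vs. 2% HS ran from -0.017 to 0.046 for Pfkfb2 and -0.0065 to 0.017 for Pdha1. MET+LEU vs. SD ran from -0.091 to 0.13 for Slc2a4, -0.080 to 0.016 for Pdk1, -0.024 to 0.032 for Pygm, -0.073 to 0.030 for Gbe1 and -0.18 to 0.018 for Ppp1r3c. The Aldoa/Aldoc ratio in SD vs. 2% HS ran from -0.12 to 0.30, Hk2/Hk1 from -0.084 to 0.017 in LEU and -0.096 to 0.0058 in MET+LEU vs. SD, and Slc16a3/Slc16a1 from -0.074 to 0.036 in LEU vs. SD. Some ratios passed only without a library: Eno3/Eno1 in SD vs. 2% HS (0.15 to 0.23), MET vs. SD (0.12 to 0.19) and LEU vs. SD (0.15 to 0.22), Pfkm/Pfkl in SD vs. 2% HS (0.15 to 0.22) and MET vs. SD (0.083 to 0.15), Ldha/Ldhb in MET+LEU vs. SD (-0.44 to -0.32), and Slc16a3/Slc16a1 in MET vs. SD (-0.19 to -0.13) and MET+LEU vs. SD (-0.31 to -0.17).

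Libraries with the same replicate number did not deviate together (mean correlation 0.0157, from -0.0913 to 0.142 over 60 pairs), so the number does not pair them. With the replicate block, members that fell in MET vs. SD were 2, those that rose vs. LEU 2 and vs. MET 8, and Eno1 in MET vs. SD (adjusted p = 0.0349) and Pdk4 (0.026) and Pfkl (0.0409) in MET+LEU vs. SD passed. The block as a sign-flip test, whose p is coarse with so few pairs, did not take the ratios past the threshold (smallest adjusted p = 0.0909). Their differences were -0.70, -1.33 and -0.39 in SD vs. 2% HS, 0.30 in LEU vs. SD and 0.46, 0.32 and 0.24 in MET+LEU vs. SD.

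Over all genes, the 25 calls of MET vs. SD were 4 to 160 without a library (160 without MET+LEU replicate 6) and 120 with DESeq2, the 88 of LEU vs. SD 43 to 269 (269 without that library), 216 with voom and 197 with only the groups compared, and the 2931 of MET+LEU vs. SD 1857 with voom and 1422 with only the groups compared. There 1690 rose and 1241 fell, or 1446 and 1556 with upper-quartile scaling. The cause of these changes was not tested. Changes of 1.25-fold were often missed at this depth on simulated counts with 200 changed genes, fewer than were called in SD vs. 2% HS. Aldoc, Pfkfb1, Ppp1r3c and Slc2a4, with few counts, carry the widest intervals.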

Other observations

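Outside the 42 members, 66 other genes of glucose, pyruvate, glycogen and pentose phosphate metabolism were listed by role, of which 51 were tested. In SD vs. 2% HS 19 fell (37.3%) and 6 rose (11.8%), where 13.9% of all genes fell and 13.9% rose. The median log2 fold change of the 51 was -0.09. Glycogen genes made up 11 of the falls, out of 20 tested. The largest change was in Pygl, the liver glycogen phosphorylase (-2.46), which was at 0.761 to 2.28 CPM in 2% HS and 0.0633 to 0.428 CPM in SD, so that it rests on few counts. Txnip, which binds thioredoxin, restrains glucose uptake and is known to respond to glucose, had 32.8 to 43.6 CPM in 2% HS and 91.7 to 134 CPM in SD, a log2 fold change of 1.54 ± 0.09 (edgeR adjusted p = 3.87e-13). Slc16a7, the carrier MCT2, rose by 1.22 ± 0.41 on the log2 scale (edgeR adjusted p = 0.0199), at 0.385 to 0.937 CPM in SD and at most 0.354 CPM in 2% HS. The pentose phosphate dehydrogenases G6pdx (0.39) and Pgd (0.21) also rose, and were chosen for mention after their values were seen.

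In MET+LEU vs. SD 3 of the 51 rose (5.88%) and 2 fell (3.92%), where 10.6% of all genes rose and 7.8% fell. Ppp1r3b, another subunit that brings protein phosphatase 1 to glycogen, fell by 0.70 ± 0.23 (edgeR adjusted p = 0.0271), from 2.08 to 3.85 CPM in SD to 0.854 to 2.88 CPM in MET+LEU. Pgm2l1, which makes glucose 1,6-bisphosphate, rose by 0.35 ± 0.11 (edgeR adjusted p = 0.0178). Dld, the dihydrolipoamide dehydrogenase that pyruvate dehydrogenase shares with other complexes, rose by 0.32 ± 0.04 (edgeR adjusted p = 6.12e-07). Its libraries were at 124 to 143 CPM in SD and 161 to 194 CPM in MET+LEU and did not overlap, beside 131 to 151 CPM in MET and 142 to 149 CPM in LEU.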
